A study of Nasonia vitripennis with 6 samples.

Results

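The genes described here are the gene models of the wasp Nasonia vitripennis whose annotation names DNA replication, DNA repair or DNA recombination, compared between the venom gland (VG) and the ovary. A gene was taken when its annotation held any of 14 keywords, among them DNA polymerase, origin recognition, mismatch repair and RAD5, and rows that name transposons or reverse transcriptase were dropped. The rule used no expression value and took 238 of the 36329 gene models. Among the 238, 93 were named for a replication or repair protein. A further 111 were named RNA-directed DNA polymerase, 109 of them from the mobile element jockey, 30 were named only DNA polymerase with no family, and 4 matched a keyword loosely. The mobile element models are described apart, because an RNA-directed polymerase copies the element and not the chromosome. Genomic positions were not used here, so each gene is given by its identifier.

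A cell copies its DNA once per division cycle. The origin recognition complex marks start sites and, with Cdt1, loads the ring of MCM proteins that becomes the replicative helicase, and GINS switches that helicase on. Replication factor C loads the sliding clamp, replication protein A coats the opened strand, and primase and the polymerases alpha, delta and epsilon make the new DNA. Mismatch repair corrects the errors left behind, excision repair removes damaged bases, and the Fanconi and recombination proteins act on crosslinks and broken strands. In insect ovaries the follicle cells and germ cells divide, nurse cells copy their genome repeatedly, and RNA is stored in the egg for the first embryonic divisions. The VG is a secretory gland that makes the proteins injected into the host.

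Both tissues came from the same kind of wasp, strain Lab II, as mated females 1 to 3 days old that had been exposed to hosts, with 3 VG and 3 ovary libraries and tissue of 40 to 50 individuals pooled in each. RNA was sequenced after poly-T selection, and the deposited values are normalised read counts, that is read counts divided by a DESeq size factor per library and averaged over the 3 libraries of a tissue. They were not divided by gene length, so levels of different genes cannot be compared. Where genes are ranked by their means below, the ranking is of counts, which gene length also affects. All ratios here are VG over ovary on the log2 scale, and negative values mean lower in the VG.

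The deposited table holds 1 mean per tissue, and the reads of the 3 libraries were recovered from it wherever exactly 1 combination of whole reads gives the mean. A read added 0.635, 0.740 or 1.16 to the VG mean and 0.129, 0.135 or 0.145 to the ovary mean. The names a, b and c below give the libraries in that order, since no label ties them to replicate numbers. The paper reports lower mapping in a VG replicate, which it puts down to less effective removal of ribosomal RNA. It found the other quality measures of that replicate similar to those of the other samples. VG library c had the lowest VG size factor, 0.287, against 0.525 for a and 0.450 for b. Whether library c is the replicate with lower mapping was not tested. VG means were recovered for most members and ovary means mainly below 200, so most ovary values stand as a mean with no spread. VG library b stood apart. The squared difference between 2 libraries, relative to counting error, averaged 15.2 and 15.6 for the pairs with b, 5.33 for VG a against c and 4.73 to 5.62 among the ovary libraries. The germ line list (vasa, oskar, nanos, aubergine, tudor and others) had 18 of 19 measured genes 2-fold or more lower in the VG with a median log2 of -5.36, and oskar averaged 8.25 in the VG against 5422 in the ovary. The list of genes named venom had 14 of 19 higher in the VG and 5 lower. The muscle list had 8 of 19 higher and 2 lower, and the fat body and blood list 9 of 14 higher and 4 lower. Among all 11382 genes at this level, 33.1% were 2-fold or more higher and 33.9% lower. In whole tissues, fewer cells of a type and less RNA per cell cannot be told apart.

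The replication and repair genes lay mostly below the ovary in the VG. Of the 93 genes named for such a protein, 5 had no read, a Mcm2 fragment (Nasvi2EG010490) had 1 VG read and 11 ovary reads, and 87 reached a mean normalised count of 10 in either tissue. Of these 87, 68 (78.2%) were 2-fold or more lower in the VG, 3 were 2-fold or more higher and 16 lay within 2-fold. Among all 11382 genes at this level, 33.9% were 2-fold or more lower in the VG and 33.1% were higher. The same shares of all genes stand beside the counts of each role below. A VG mean 10-fold or more below the ovary mean was found for 33 of the 87, against 10.3% of all genes. The median log2 ratio of the 87 was -2.87, and that of all genes was -0.12. These are descriptions of tissue means with no test.

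The VG libraries could be recovered for 83 of the 87 genes. In 71 of the 83 every VG library lay below the ovary mean, and in 7 every VG library lay above it. Over all 9178 genes recovered in the VG, 52.9% had every library below and 33.1% every library above. Without VG library b, 66 of the 83 genes were 2-fold or more lower in the VG, the same number as with all libraries. With each VG library left out in turn, 66 to 68 were lower and 2 to 4 higher. Of the 9178 genes, 3670 to 3716 were then lower and 2571 to 2637 higher.

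**Figure D1:**
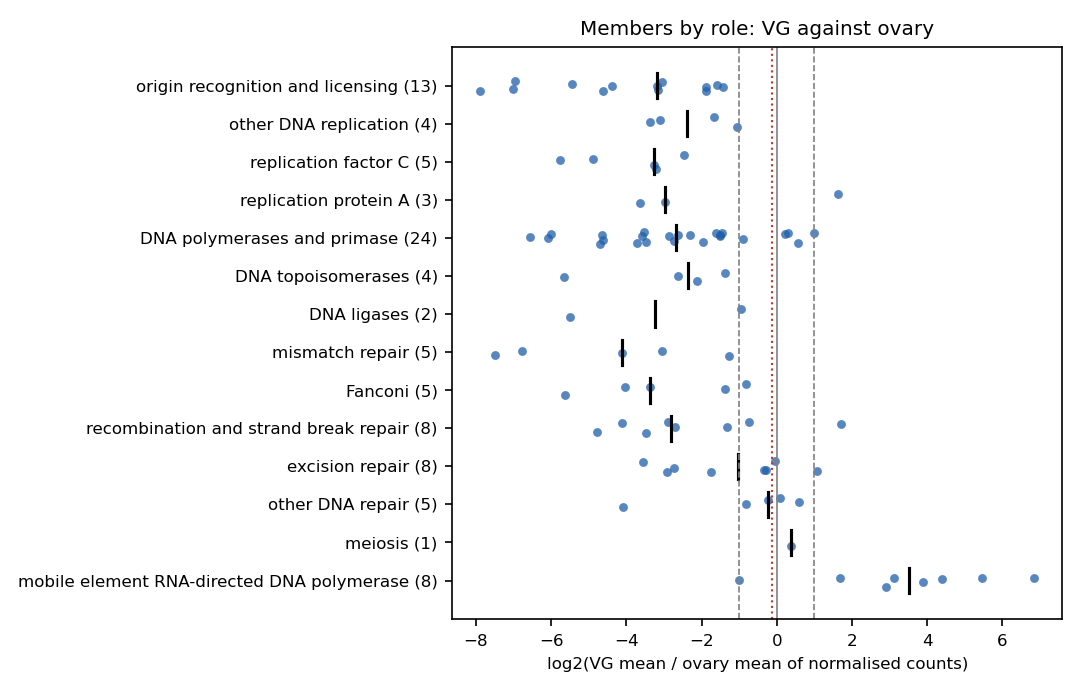
Each point is a gene with a mean of at least 10 in either tissue, placed by the log2 ratio of its VG mean to its ovary mean (x axis) in the row of its role, with the number of genes in brackets. Black bars are the medians of the roles, dashed grey lines mark 2-fold, the dotted red line is the median of all genes at -0.12, and the rows from licensing to mismatch repair lie left of it except for 4 polymerase models and 1 replication protein A gene.

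All 13 measured genes of origin recognition and licensing were 2-fold or more lower in the VG, with a median log2 of -3.19. The lowest ratio among all members was that of MCM5 (Nasvi2EG013100), a subunit of the helicase ring. It had 1.91, 19.99 and 3.49 normalised counts in VG libraries a, b and c, against an ovary mean of 2007, and was 237-fold lower in the VG. MCM4 (Nasvi2EG001158), another subunit of that ring, had 1.91, 35.5 and 6.97 in the VG libraries, against 1929 in the ovary, and was 130.3-fold lower. For Mcm2 (Nasvi2EG010488) the VG libraries held 3.81, 44.4 and 17.4, against 2705 in the ovary, a 124-fold lower level. In all 3 genes VG library b was the highest by far, and even there the level was far under the ovary mean.

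The other ring subunits differed less between the tissues. Mcm6 (Nasvi2EG008293) had 66.7, 91.0 and 41.8 in the VG, against the highest ovary mean of its role, 2901, a log2 ratio of -5.45. Mcm7-B (Nasvi2EG008232) stood at 89.6, 149 and 76.7 in the VG, against 2177 in the ovary (log2 -4.37), and mcm3 (Nasvi2EG010679) at 248, 311 and 213 in the VG, against 2354 in the ovary (log2 -3.19). The 6 subunits work together in 1 ring, yet their log2 ratios ran from -7.89 for MCM5 to -3.19 for mcm3.

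Library b held 45 of the 57 VG reads of Mcm2, MCM4 and MCM5, or 78.9%, where its size factor is 35.7% of the 3. Summed over the 3 genes, the VG mean was 0.680% of the ovary mean, and 0.267% without library b. Over the 21 germ line markers, library b held 1824 of 4580 VG reads, or 39.8%, close to its size factor, and their summed VG mean was 3.59% of the ovary mean with library b and 3.37% without it. The markers were not alike. The 7 models of aubergine, vasa, nanos and maelstrom, picked out after their values were seen, had 313 of 462 VG reads in b, or 67.7%, whereas oskar had 7.63, 6.66 and 10.5 normalised counts and the vitellogenin receptor 284, 244 and 216 in VG libraries a, b and c. The part of ovary RNA in these values was not tested. Without library b, MCM5 was 745-fold lower in the VG, MCM4 435-fold and Mcm2 255-fold, so the size of these ratios rests on that library. The 11 VG reads of MCM5 have an exact 95% Poisson interval of 5.49 to 19.7 reads, which covers counting error only.

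Most loading proteins had ratios nearer to 0. Cdt1 (Nasvi2EG000162), which brings the MCM ring to the origin, had 374, 233 and 401 in the VG, against 2775 in the ovary, and was 8.26-fold lower. ORC1 (Nasvi2EG005871), the large subunit of the origin recognition complex, had the highest VG mean of the role, with 336, 351 and 359 in the VG against 1287 in the ovary. ORC2 (Nasvi2EG011876) had the smallest difference of the role, with 111, 204 and 171 in the VG against 439 in the ovary, a log2 ratio of -1.44. ORC3 had a log2 of -4.63 and ORC4 of -1.58. MCM8 and MCM9, relatives of the ring subunits that act in recombination, had log2 ratios of -3.15 and -1.87, and MCM9 had 144 in library b, 59.1 in a and 27.9 in c, which gave a log2 of -2.70 without b.

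**Figure D2:**
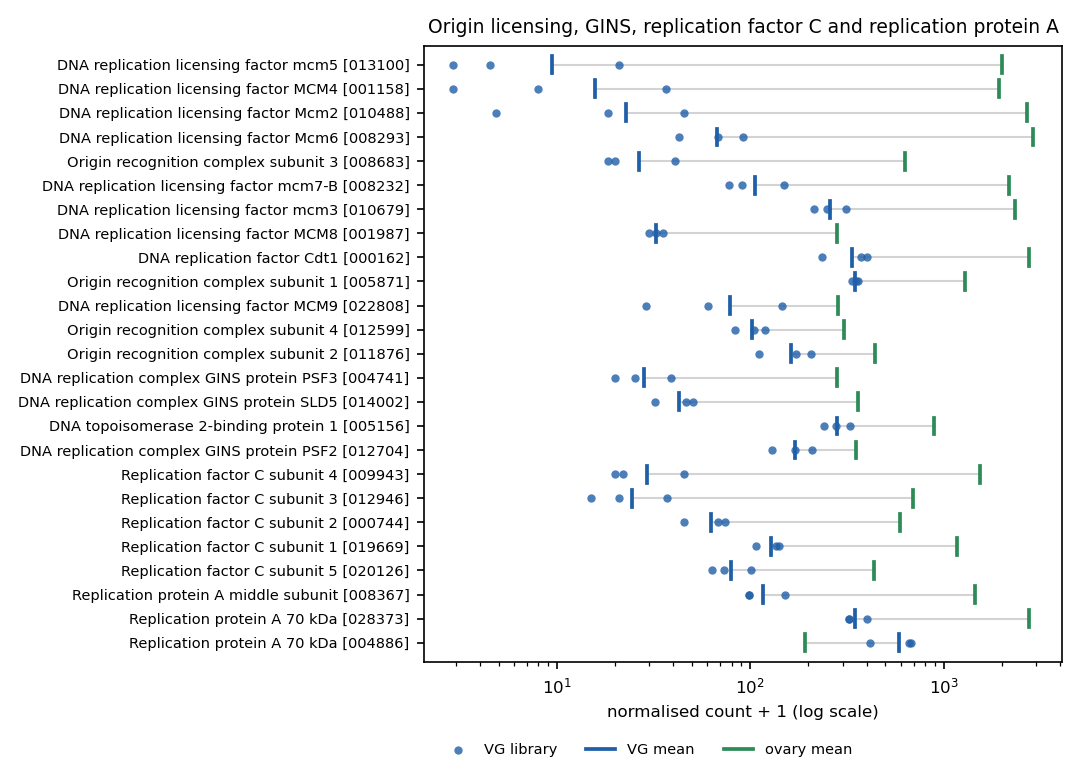
Normalised counts + 1 on a log axis for the genes of licensing, GINS, replication factor C and replication protein A, with the last 6 digits of each identifier in brackets. Blue points are the 3 VG libraries, blue bars the VG means and green bars the ovary means, and in every row but the last all VG points lie left of the ovary mean.

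The activators and loaders of the fork were lower in the VG as well. The 3 measured GINS subunits had log2 ratios of -3.38 (PSF3, Nasvi2EG004741), -3.09 (SLD5) and -1.07 (PSF2, Nasvi2EG012704), and PSF1 had no read in either tissue. PSF3, for example, had 19.1, 37.8 and 24.4 in the VG against 281 in the ovary. TopBP1 (Nasvi2EG005156), which binds the origin activation machinery and signals damage, had 238, 278 and 328 in the VG, against 891 in the ovary (log2 -1.66). All 5 subunits of replication factor C were more than 4-fold lower in the VG. Subunit 4 (Nasvi2EG009943) had the largest difference, with 19.1, 44.4 and 20.9 in the VG against 1542 in the ovary, a 54.8-fold lower level. Subunit 1 (Nasvi2EG019669) had the highest VG mean of the complex with 135, 107 and 139, against 1171 in the ovary (log2 -3.20), and subunit 5 (Nasvi2EG020126) the smallest difference (log2 -2.48).

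Replication protein A held a pair of gene models with opposite ratios. The 70 kDa subunit model Nasvi2EG028373 had 322, 399.7 and 324 in the VG, against 2753 in the ovary, and was 7.90-fold lower in the VG. The other 70 kDa model, Nasvi2EG004886, had 681, 415 and 659 in the VG, against 189, 199 and 184 in ovary libraries a, b and c. Its libraries did not overlap between the tissues, and it rose in the VG by 1.58 on the log2(normalised count + 1) scale (SE 0.21, limma adjusted p = 0.00077). The middle subunit (Nasvi2EG008367) had 151, 97.7 and 97.6 in the VG, against 1448 in the ovary (log2 -3.65). Another 70 kDa model and another middle subunit model had no read.

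The 24 polymerase and primase genes had 19 members 2-fold or more lower in the VG, 5 within 2-fold and none higher, with a median log2 of -2.68. The largest differences were in single models of primase, which starts each new strand with RNA, and other models with the same product names differed less. The primase model Nasvi2EG017572 had 1, 4 and 2 reads in the VG libraries, a mean of 5.92 against 561 in the ovary, and was 94.7-fold lower. The primase large subunit Nasvi2EG001604 had 2, 13 and 1 VG reads, a mean of 12.1 against 825 in the ovary. It was 68.5-fold lower in the VG, and 226-fold without library b. The other primase model, Nasvi2EG001083, was 6.66-fold lower, and the other large subunit model, Nasvi2EG014903, was 1.85-fold lower. Polymerase epsilon subunit 2 (Nasvi2EG011019), part of the leading strand polymerase, had 3.81, 11.1 and 3.49 in the VG, against 396 in the ovary. It was 64.6-fold lower in the VG, and 109-fold without library b.

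The polymerases of the fork were lower in the VG to different degrees. Polymerase alpha (Nasvi2EG019447), which extends the primers, had 172, 91.0 and 153 in the VG, against 1837 in the ovary, the highest ovary mean of the role, and was 13.2-fold lower. Another model of the polymerase alpha catalytic subunit, Nasvi2EG014422, was 3.07-fold lower, and 5.22-fold without library b. The catalytic subunit of polymerase epsilon (Nasvi2EG013048) had 738, 289 and 544 in the VG, against 1478 in the ovary (log2 -1.50), while its subunits 3 and 4 had log2 ratios of -2.63 and -3.59. The catalytic subunit of polymerase delta stood apart. Its model Nasvi2EG012228 had the highest VG mean of all members named for a replication or repair protein, 1964 in the VG against 1605 in the ovary (log2 0.29), and its model Nasvi2EG019661 had 172, 251 and 174 in the VG against 158, 179 and 177 in the ovary libraries. That difference was 0.19 on the log2(normalised count + 1) scale (SE 0.19, limma adjusted p = 0.41), within the spread between libraries.

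The small subunit of polymerase delta also had a pair of models that differed. Nasvi2EG008177 had 49.6, 46.6 and 6.97 in the VG, against 849.5 in the ovary, and was 24.7-fold lower. Nasvi2EG000802 had 209.7, 182 and 219.6 in the VG, against 111, 92.7 and 105 in the ovary libraries, and rose in the VG by 0.98 (SE 0.16, limma adjusted p = 0.0020). The pair thus differed by 5.61 in log2 ratio. With the libraries centred on their medians Nasvi2EG000802 was not called (log2 0.18, limma adjusted p = 0.52).

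Translesion and repair polymerases covered a wide range. Zeta (Nasvi2EG000860) and theta (Nasvi2EG012091), which copy past damage and join broken ends, were 25.8-fold and 24.9-fold lower in the VG, eta 11.6-fold, iota 3.88-fold and REV1 2.74-fold. Theta was even across the VG libraries, with 24.8, 24.4 and 27.9, against 641 in the ovary. The mitochondrial polymerase gamma had log2 ratios of -1.52 for gamma-1 and -2.87 for gamma-2. Polymerase beta (Nasvi2EG013518), the gap filler of base excision repair, had 137, 147 and 143 in the VG, against 106, 87.5 and 96.1 in the ovary libraries. It rose in the VG by 0.56 (SE 0.16, limma adjusted p = 0.019), and was not called without a trend in the variance (adjusted p = 0.074), with centred libraries (0.37) or without ovary library b (0.064) or c (0.054).

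**Figure D3:**
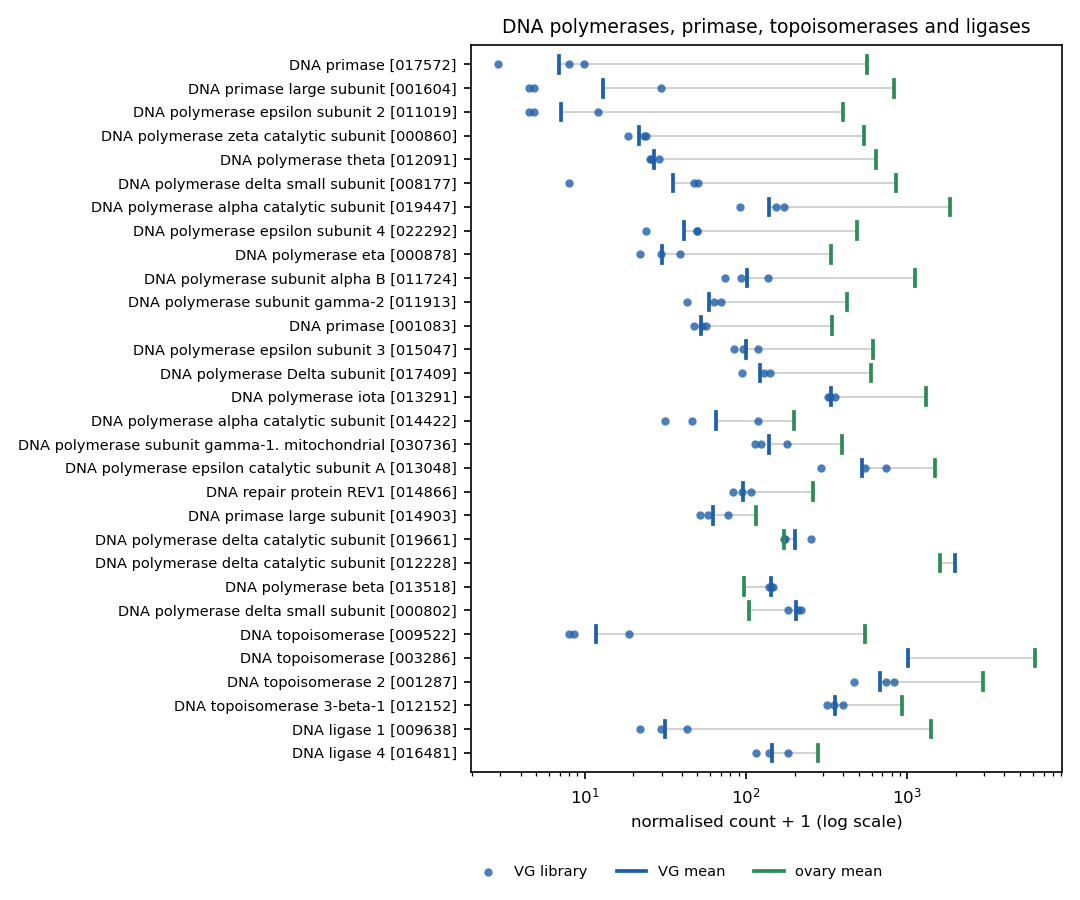
Normalised counts + 1 on a log axis for polymerases, primase, topoisomerases and ligases. Blue points are VG libraries (not drawn where the VG mean could not be split into libraries), blue bars VG means and green bars ovary means, and the 4 rows of polymerases delta and beta with the VG mean right of the ovary mean follow the long run of rows with the VG mean on the left.

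All 4 topoisomerases, which relieve the twist of the DNA, were 2-fold or more lower in the VG. The model Nasvi2EG003286 had 1011 in the VG against 6206 in the ovary, the highest ovary mean of all members, and was 6.14-fold lower in the VG. The other model with the same product name, Nasvi2EG009522, had 7.63, 17.8 and 6.97 in the VG, against 542 in the ovary, a 50.3-fold lower level. Topoisomerase 2 (Nasvi2EG001287), which separates the copied chromosomes, had 738, 469 and 823 in the VG, against 2944 in the ovary (log2 -2.12), and topoisomerase 3-beta-1 (Nasvi2EG012152) had a log2 of -1.38. DNA ligase 1 (Nasvi2EG009638), which seals the pieces of the lagging strand, had 41.9, 28.9 and 20.9 in the VG, against 1394 in the ovary, and was 45.6-fold lower. DNA ligase 4 (Nasvi2EG016481), which joins broken ends, had 137, 182 and 115 in the VG, against 279.6 in the ovary. Its log2 was -0.95, and -1.15 without library b. DNA ligase 3 had no read.

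Mismatch repair had the lowest median log2 of the roles, -4.11, and all 5 genes were 2-fold or more lower in the VG. Msh6 (Nasvi2EG009056) takes part in finding the mismatch. It had 9, 6 and 3 reads in the VG libraries, a mean of 13.6 against 2483 in the ovary, and was 182-fold lower. Library b did not stand out in Msh6, which was 179.8-fold lower without it. PMS2 (Nasvi2EG012340), the endonuclease that cuts the wrong strand, was 17.3-fold lower.

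The Fanconi genes, which act on crosslinked DNA, had 4 of 5 members 2-fold or more lower in the VG. The group I protein (Nasvi2EG011466) had 13.3, 28.9 and 6.97 in the VG, against 813 in the ovary, a 49.6-fold lower level, and 80.0-fold without library b. In contrast, D2 (Nasvi2EG005404), its partner in vertebrates, had 172, 158 and 125 in the VG, against 393 in the ovary, a 2.59-fold lower level. The helicases M and J were 16.3-fold and 10.3-fold lower. Fanconi-associated nuclease 1 (Nasvi2EG002874) had the highest means of the group in both tissues, with 583, 404 and 697 in the VG against 999 in the ovary, and lay within 2-fold (log2 -0.83).

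Recombination and strand break repair had 6 of 8 genes 2-fold or more lower in the VG. The lowest was RAD54B (Nasvi2EG009745), a motor protein of recombination, with 11.4, 15.5 and 10.5 in the VG against 346 in the ovary, a 27.7-fold lower level. Rad54 was 17.3-fold lower and RAD52 11.2-fold. RAD50 (Nasvi2EG024737), which tethers broken ends, had the highest means of the role, with 164, 211 and 153 in the VG against 1155 in the ovary (log2 -2.71). XRCC1, a scaffold of single strand break repair, lay within 2-fold.

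Excision repair was divided. XP-C (Nasvi2EG036428), which finds the damage, had 76.3, 64.4 and 80.2 in the VG, against 865 in the ovary, and was 11.8-fold lower. XP-G and XP-A, which cut and check the damaged stretch, were 7.51-fold and 6.62-fold lower, and RAD23 (Nasvi2EG001097), the partner of XP-C, had 1050.3 in the VG against 3499.8 in the ovary, a 3.33-fold lower level. The remaining genes lay near or above the ovary level. Haywire (Nasvi2EG010160), a helicase of the transcription factor TFIIH, had 1184 in the VG against 1443 in the ovary, and XPF (Nasvi2EG011643) had 662, 1033 and 582 in the VG against 778 in the ovary. ERCC-1 (Nasvi2EG011875), the partner of XPF, had 59.1, 142 and 48.8 in the VG, against 109.9, 101 and 106 in the ovary libraries. It was not called (limma adjusted p = 0.31), but without library b it fell by 0.96 on the log2(normalised count + 1) scale (adjusted p = 0.0033). ERCC-6 (Nasvi2EG012706), which acts where a polymerase stalls in transcription, had 214, 251 and 275 in the VG, against 118 in the ovary, a log2 ratio of 1.07. Its ovary libraries could not be recovered, so it was not tested.

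The remaining repair genes were annotated as Ada or as alkylated DNA repair proteins of the alkB family, and 4 of 5 lay within 2-fold. The gene named for Ada (Nasvi2EG004750), in bacteria an enzyme that takes methyl groups off DNA, was the exception. It had 3, 1 and 0 reads in the VG libraries, against 45.3, 45.3 and 43.5 normalised counts in the ovary libraries, and fell by 4.04 in the VG on the log2(normalised count + 1) scale (SE 0.69, limma adjusted p = 0.0025). Its VG mean was 2.65, and 1.11 without library a. The gene reached the minimums of 10 reads and a mean of 10 through the ovary alone, so nothing is read from its call. AlkB protein 7 (Nasvi2EG001988) had 76.3, 73.3 and 83.6 in the VG, against 131, 137 and 142 in the ovary libraries, and fell by 0.81 (SE 0.16, limma adjusted p = 0.0043). AlkB protein 8 (Nasvi2EG012183) had 629, 517 and 609.9 in the VG against 556 in the ovary, and alkB proteins 1 and 6 were not called (limma adjusted p = 0.052 and 0.46). AlkB protein 6 (Nasvi2EG004313) had 103, 17.8 and 132 in the VG, where library b was the lowest.

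The meiosis role held 2 gene models, and only 1 of them had reads. SPO11 (Nasvi2EG023760), the enzyme that makes the breaks of meiotic recombination, had 6, 10 and 5 reads in the VG libraries and 39, 24 and 33 in the ovary libraries, or means of 17.0 in the VG against 13.1 in ovary tissue. The difference was within the spread between libraries (limma adjusted p = 0.45). The meiotic nuclear division protein 1 homolog had no read.

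**Figure D4:**
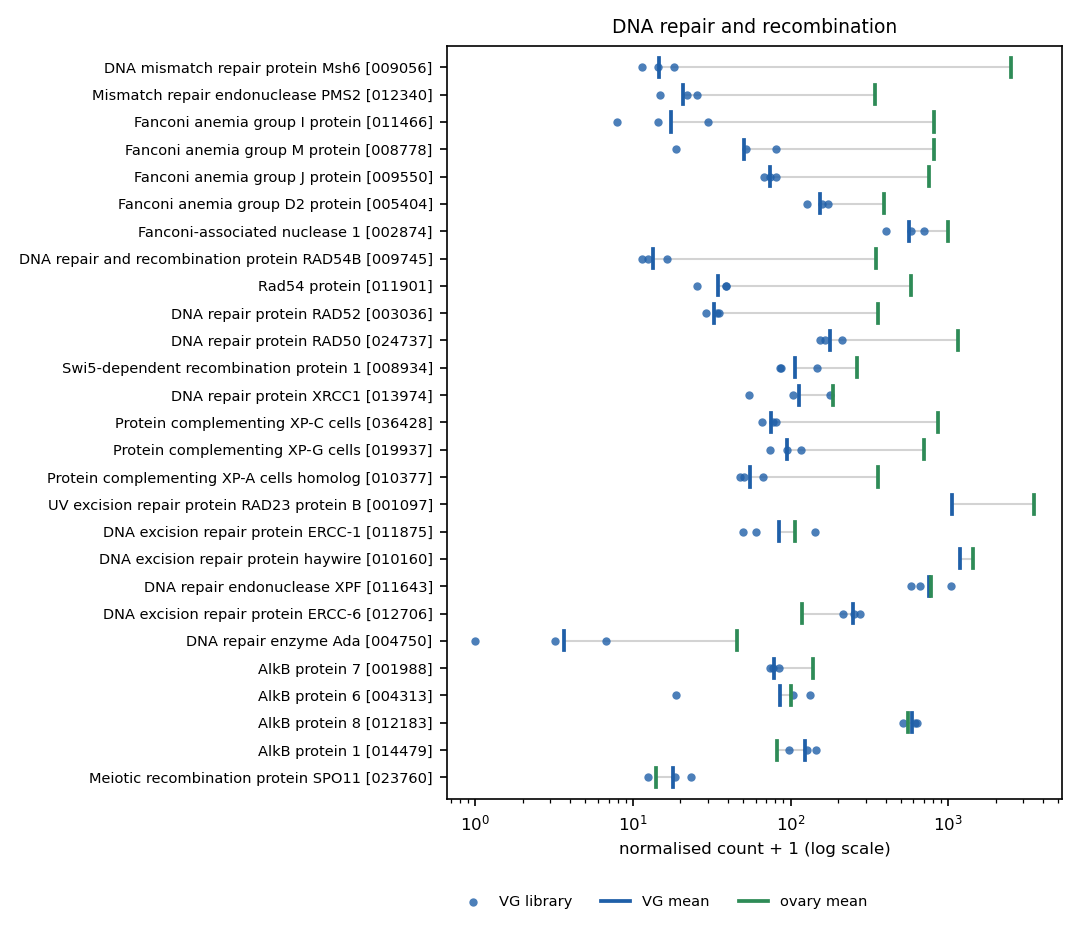
Normalised counts + 1 on a log axis for most repair and recombination genes, grouped by role from mismatch repair at the top to meiosis at the bottom. Blue points are VG libraries (not drawn where the VG mean could not be split), blue bars VG means and green bars ovary means, and the bars lie far apart in the mismatch repair rows and close together in most alkB rows.

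A test between libraries was possible only where both tissues could be split into libraries. Over 6821 genes with at least 10 reads, limma on log2(normalised count + 1) called 25.0% lower and 37.5% higher in the VG at an adjusted p under 0.05. Among them were 30 members, with 8 called lower and 11 higher. Only 13 were named for a replication or repair protein, and 3 of these fell and 4 rose. Shares of this size are near those of all genes. The tested genes have low ovary means, since an ovary mean above 300 was not split, so of the 68 genes that were 2-fold or more lower Ada alone was tested. Ada itself reached the minimum of 10 reads through the ovary alone. The genes that fell were Ada, alkB protein 7 and the primase large subunit Nasvi2EG014903, which had 57.2, 51.1 and 76.7 in the VG, against 120.4, 107 and 114 in the ovary libraries (log2 difference -0.89, SE 0.21, limma adjusted p = 0.010). Among the genes that rose were replication protein A Nasvi2EG004886, the polymerase delta small subunit Nasvi2EG000802 and polymerase beta.

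Every VG library lay below every ovary library in 3 of the 13 genes and above in 5, against 27.9% and 40.9% of all genes tested. With the libraries centred on their medians, a scaling that moved the median of all tested genes from 0.53 to -0.27, 6 of the 13 were called lower and 2 higher. That scaling called 2384 of all 6821 genes tested lower and 1777 higher, against 1708 and 2560 without it, so all genes moved the same way. Replication protein A Nasvi2EG004886 was called higher both with and without the centring.

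**Figure D5:**
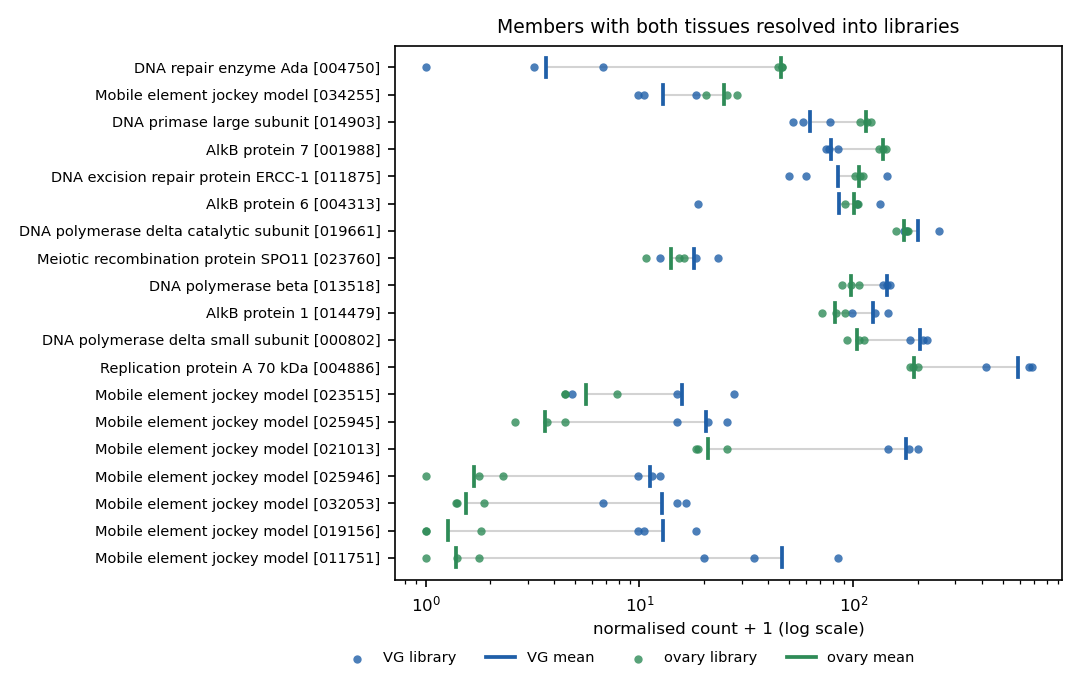
Normalised counts + 1 on a log axis for 19 of the 20 members that reached a mean of 10 and whose reads could be split into libraries in both tissues, with blue for the VG and green for the ovary, points for libraries and bars for means. The upper rows have the VG points left of the ovary points, and some of the middle rows overlap. Polymerase beta, the polymerase delta small subunit, replication protein A and most mobile element models are among the rows with every VG point to the right.

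The models named RNA-directed DNA polymerase had few reads. Of the 111, 68 had no read, 19 had reads in both tissues, 5 in the VG only and 19 in the ovary only. A mean of 10 in either tissue was reached by 8, and 7 of the 8 had a VG mean 2-fold or more above the ovary mean. All 8 reached 10 in the VG and only 2 in the ovary, so the minimum largely fixes this direction and nothing is read from the count. A mean of 10 takes fewer reads in the VG than in the ovary, because a VG read adds more to a mean. The highest was Nasvi2EG021013, with 95, 65 and 57 reads in the VG libraries and 45, 61 and 41 in the ovary libraries. Normalised, these were 181, 144 and 199 in the VG against 17.4, 24.7 and 17.8 in the ovary, and it rose in the VG by 3.07 (SE 0.24, limma adjusted p = 9.7e-05).

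Others of these models rested on a handful of ovary reads. Nasvi2EG011751 had 10, 15 and 24 reads in the VG libraries and 2, 1 and 0 in the ovary libraries (limma adjusted p = 0.00057), and Nasvi2EG019156 had 5, 4 and 5 VG reads and 0, 2 and 0 ovary reads (limma adjusted p = 0.00073). Both reached the minimum of 10 reads for the test mainly through their VG reads, so nothing is read from their calls. Nasvi2EG025945, Nasvi2EG025946 and Nasvi2EG032053 rose too, with VG means of 10.3 to 19.6 and ovary means of 0.554 to 2.60. These models reached a mean of 10 in the VG only, so nothing is read from their calls. Nasvi2EG023515 had 3.81, 26.6 and 13.9 in the VG against 3.48, 6.88 and 3.48 in the ovary and was not called (limma adjusted p = 0.16). Nasvi2EG034255 fell by 0.99 (limma adjusted p = 0.048), and lost that call with no minimum and in each fit that left out VG library a or b or any ovary library. A further 4 models without a VG read were called lower, with ovary means of 1.47, 3.51, 4.15 and 9.46, against a mean of 3.49 that 3 VG reads could give. These 4 models reached the minimum of 10 reads through the ovary alone, so nothing is read from their calls. The one with the lowest ovary mean, Nasvi2EG031107 (limma adjusted p = 0.029), lost its call with a pseudocount of 4 (0.063), with no minimum (0.054) and without VG library a, b or c (0.065, 0.061 and 0.065). Of the 30 models named only DNA polymerase, 26 had no read and none reached a mean of 10, and Nasvi2EG028647 rose on 2, 3 and 3 VG reads against 1, 0 and 2 ovary reads (limma adjusted p = 0.0035). Most of its few reads were VG reads, so nothing is read from that call. A read that fits near-identical copies of an element cannot be placed in 1 model, so the counts of single models are uncertain. Among the replication genes, 8 pairs with the same product name were measured, and their sequences were not compared.

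Genes of the same pathways that the keywords did not take were also mostly lower in the VG. Of 39 measured, 31 were 2-fold or more lower in the VG and 3 higher, with a median log2 of -3.02. Over all 11382 genes at this level, 33.9% were lower and 33.1% higher, with a median log2 of -0.12. PCNA (Nasvi2EG008200), the sliding clamp, had 191, 167 and 219.6 in the VG, against 4311 in the ovary. The large subunit of ribonucleotide reductase (Nasvi2EG000030), which makes the DNA building blocks, had 162, 129 and 136 in the VG, against 7023 in the ovary. Flap endonuclease 1 had a VG mean of 56.8 against 1394 in the ovary, and MCM10 14.3, or 9.20 without library b, against 486 in the ovary. The 3 genes higher in the VG were an X-ray repair protein 5 model (Nasvi2EG001914, 2249 in the VG against 87.2 in the ovary), a poly [ADP-ribose] polymerase (Nasvi2EG006472, 37.8 against 3.77) and a thymidylate synthase (Nasvi2EG011975, 118 against 2.43). The VG mean of the thymidylate synthase rested on library a, with 229, 33.3 and 90.6 in a, b and c, and was 62.0 without it. For each of the 3 genes another model with the same product name was 4-fold or more lower in the VG.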

How the data were processed

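RNA of 3 VG and 3 ovary libraries was sequenced. Per the paper's methods and the submitters' processing notes, the authors aligned reads with TopHat, counted them per gene by strand with HTSeq and normalised them with DESeq. The sources used here do not give the build. The deposited signal is the mean normalised count per tissue, and the study's supplementary gene list showed which column is which tissue. Columns with the authors' fold changes and p-values were not used.

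Means were split into whole reads of 3 libraries where exactly 1 combination fitted, which held for 100.0% of VG means up to 500 and ovary means up to 100, and for 96.8% of VG means from there to 1000 and 69.2% of ovary means from there to 200. The split and the test were tested on simulated data. limma 3.58.1 with a variance trend (R 4.3.3, two-sided, Benjamini-Hochberg over all genes tested) compared the libraries of genes with at least 10 reads. It measures the spread between pools of wasps. Figures used Python 3.11.15.

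Genes named by rule were, in each role, those with the highest VG mean, highest ovary mean, lowest and highest ratio, plus the 10 lowest and 10 highest ratios of all, those 2-fold higher in the VG and those called. Others were named after their values were seen, and some that the rule takes are not reported here. Members and lists were chosen with earlier results of these data known. REV1, XPF, TopBP1 and the loosely matched genes were given their role by hand.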

Additional observations from a re-analysis of the deposited data

How the results depend on the processing

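No paired analysis was possible because the recovered libraries carry no replicate number. The 69 members (of 97) that were 2-fold or more lower in the VG stayed within 1.5 times of that number under every alternative, from 52 at a fold of 4 to 76 with totals without the 100 highest genes of each tissue. Of all 11382 genes with a mean of 10 in either tissue, 3860 were lower, 2195 at a fold of 4 and 5187 with those totals. The share of members was less stable than their number. With no minimum, 72 of 138 members and 4231 of all 19854 genes were lower. The 10 members higher in the VG became 4 with a minimum mean of 50 or with both tissues at 10 or more, 3 without the mobile element and loosely matched models, 6 at a fold of 4 and 42 with no minimum, where most rest on a few VG reads. Over all genes, the 3769 of 11382 that were higher became 2657 of 9258 with a minimum mean of 50 and 2058 of 8532 with both tissues at 10 or more. At a fold of 4 they became 2588, and with no minimum 10038 of 19854. The median log2 of -2.62 was -1.16 with no minimum, -2.87 without the mobile element and loosely matched models, -3.27 with totals without the 100 highest genes, which lowered every ratio by 0.65, and -2.35 when centred on all genes. Leaving out each VG library, over the 93 members recovered there, gave medians of -2.70 to -2.62 and, as an alternative chosen after seeing the data, 66 to 69 members lower and 9 to 10 higher. Of all 9178 genes recovered there, 3670 to 3716 were lower and 2571 to 2637 higher. The limma calls were 8 lower and 11 higher, 6 to 9 and 9 to 12 with each library left out, and 11 and 9 with centred libraries. With each library left out, 6350 to 6628 genes were tested, and 1330 to 1876 of all genes were called lower and 2084 to 2722 higher. Over all 6821 genes tested, the calls were 1708 lower and 2560 higher, and 2384 and 1777 with centred libraries. Polymerase beta changed sign there (log2 -0.24, limma adjusted p = 0.37), as did the polymerase delta catalytic subunit Nasvi2EG019661 (log2 -0.60, limma adjusted p = 0.035). Most ovary means have no spread, so the ratios of the abundant genes were not tested.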
